A study of Mus musculus with 4 samples.

Results

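DNA methylation writers, erasers and readers are described here as 9 genes of 49997 in the deposited tables: Dnmt1, Uhrf1, Dnmt3a, Dnmt3b, Tet1, Tet2, Tet3, Mbd1 and Mbd2. They were chosen by gene symbol, and all 9 were found and passed the filter on low counts. The series, titled for the binding of the remodeller CHD7 at domain boundaries, set iMOP cells against neurons made from them. iMOP is an immortalized multipotent progenitor line of the mouse inner ear. Total RNA was depleted of ribosomal RNA and sequenced with a stranded kit, in 2 libraries per group. Proliferating cells were labelled wild-type and received basic FGF at 20 ng/ml with B27 and carbenicillin at 25 µg/ml in DMEM/F12. The neurons were also labelled wild-type and were kept in Neurobasal medium with N21, L-glutamine at 2 mM and the CDK2 inhibitor K03861 at 1 µM. All are cultures of 1 cell line, so the libraries do not sample different animals, and p-values measure only the spread between these cultures. The titles number them as biological replicates 1 and 2, and both replicate 2 titles add that they belong to a second set. In bulk RNA, fewer cells that express a gene and less RNA per cell cannot be told apart.

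Methyl groups on cytosines of CG dinucleotides are copied to the new DNA strand after replication by DNMT1, which is brought to sites methylated on the old strand alone by UHRF1. DNMT3A and DNMT3B place methyl groups on sites that had none. The TET enzymes oxidise 5-methylcytosine, which starts its removal, and proteins with a methyl-CpG binding domain, such as MBD1 and MBD2, bind methylated CG and recruit repressors. In the nervous system DNMT3A and TET3 are known as prominent forms in maturing neurons, whereas DNMT3B and TET1 are best known from early embryonic cells, and UHRF1 is known as a gene of cycling cells.

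Sequences before an internal annotated start of Dnmt1 and of Uhrf1, the maintenance pair, are shown. They share a motif that no other window of the set holds. RefSeq windows of the 250 bases before an annotated start (build GRCm38.p6) were found for 7 of the 9 genes, 12 windows in all. Windows for Mbd1 and Mbd2 were not used here. The E2F-type motifs TTTCCCGC, TTTCGCGC, TTTGGCGC and TTTGCCGC were searched on both strands, and 1.86% of the 32851 windows in the table hold at least 1 match to any of them. Among the 12 windows, 2 had a match, 1 of the 3 Dnmt1 windows and 1 of the 2 Uhrf1 windows. In both it was TTTCGCGC, which reads GCGCGAAA on the Dnmt1 strand. Capitals mark the match, with 11 bases on each side. The Dnmt1 site lies at chr9:20952824-20952853 on the minus strand and the Uhrf1 site at chr17:56304117-56304146 on the plus strand.
Dnmt1 site: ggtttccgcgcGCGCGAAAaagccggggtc
Uhrf1 site: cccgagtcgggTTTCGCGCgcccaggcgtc
The match ends 211 bases before the Dnmt1 start of that window and 177 bases before the Uhrf1 start of its window. Both sites lie inside the RefSeq span of their gene, past its start at 20959888 for Dnmt1 and 56303337 for Uhrf1. A match is a description of letters and does not show that a factor binds there.

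The whole Uhrf1 window at chr17:56304063-56304312 and that of Dnmt3b at chr2:153649199-153649448, both on the plus strand, are shown for their CG content.
Uhrf1 window: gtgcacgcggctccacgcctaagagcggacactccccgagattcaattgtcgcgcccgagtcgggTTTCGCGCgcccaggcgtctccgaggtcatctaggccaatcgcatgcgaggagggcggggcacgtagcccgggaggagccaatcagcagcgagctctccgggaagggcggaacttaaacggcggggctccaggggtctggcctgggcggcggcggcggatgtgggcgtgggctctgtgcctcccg
Dnmt3b window: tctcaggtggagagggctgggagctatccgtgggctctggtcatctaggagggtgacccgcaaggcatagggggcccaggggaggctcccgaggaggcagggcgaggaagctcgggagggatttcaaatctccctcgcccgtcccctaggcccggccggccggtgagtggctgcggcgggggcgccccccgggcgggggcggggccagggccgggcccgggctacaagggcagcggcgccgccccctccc
Capitals again mark the E2F-type match, which the Dnmt3b window lacks. The bases that follow the Dnmt3b window were not found in a GENCODE transcript of that gene, whereas those after the Uhrf1 window were. The Dnmt3b window reaches past the RefSeq start of its gene, at 153649411. The Uhrf1 window lies wholly inside its gene, past the RefSeq start at 56303337, so it precedes an internal start. The Uhrf1 window holds 30 CG dinucleotides, a number reached by 5.94% of all windows, and the Dnmt3b window holds 21, reached by 16.3%. The median over all windows was 6. The most CG-rich window of the set belonged to Tet2, with 51, and the richest window of Dnmt3a had 40. The Tet3 window had 17 and the Tet1 window 15, while the other Uhrf1 window had 10, the Dnmt1 window with the match had 26 and the other Dnmt1 windows 7 and 2.

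The libraries held 7446361 to 14484011 counts, of which 53.3% to 76.1% fell on the 18S ribosomal RNA row, and 2595578 to 3850766 counts remained without it. Proliferating replicate 2 had the fewest of these counts and the fewest genes with a count, 17762 against 20012 to 21637 in the others. In each series of 4 values below, the order is proliferating replicates 1 and 2, then neuron replicates 1 and 2. CPM is the count scaled to a common library size with TMM factors. The TMM-adjusted library sizes were 12171010, 7387554, 11888328 and 9809369, so unscaled counts do not compare between libraries. The 8 otic progenitor markers summed to 78.3, 111, 70.2 and 32.7 CPM, with Pax2 and Pax8 at 0 in all libraries. Of the 3 tested, 1 had a positive and 2 negative estimates. Sox9 had 40.8, 58.1, 26.9 and 4.18 CPM, lower in both neuron libraries. Sox2 had 29.7, 48.1, 33.8 and 22.0 CPM, with overlapping groups. Eya1 went the other way, with 5.09, 3.65, 8.66 and 5.81 CPM, higher in both neuron libraries. The 12 neuronal markers summed to 164, 350, 202 and 368 CPM, and Tubb3 alone gave 19.1, 194, 28.8 and 105 CPM of this. Without Tubb3, left out after its values were seen, the other 11 summed to 145, 156, 173 and 263 CPM. In this sum both neuron libraries lay above both proliferating ones, and Map2 alone gave 93.9, 92.3, 121 and 141 CPM of it. Of the 11 markers tested, Tubb3 among them, 7 had positive and 4 negative estimates, and 2, Map2 and Elavl4, were higher in both neuron libraries. The median log2 difference of these 11 was -0.23 between the replicate 1 libraries and 0.61 between the replicate 2 libraries. The 8 glial markers summed to 44.6, 71.7, 23.2 and 8.97 CPM, carried by Gfap (181, 89, 1 and 2 counts), Fabp7 (272, 362, 211 and 9) and Cnp (76, 76, 58 and 72), while Sox10 and Mbp had at most 2 counts each in a library. Hair cell markers summed to 23.9, 19.0, 4.63 and 22.1 CPM, mostly from Myo6 (256, 121, 54 and 122 counts) and Atoh1 (17, 18, 1 and 91), with Pou4f3 and Otof at 0. Mesenchymal markers summed to 14.8, 12.5, 28.5 and 14.9 CPM, mostly from Pdgfra (119, 66, 200 and 70 counts) and Tbx18 (48, 17, 126 and 68), with Col1a2 and Dcn at 0. Immune markers summed to 0.714 to 1.43 CPM with Ptprc and Cx3cr1 at 0, and pluripotency markers to 0.0822 to 0.589 CPM with Pou5f1 at 0. The part of cell makeup in the results was not tested.

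None of the 9 genes passed the test for a difference between neurons and proliferating cells. In edgeR's quasi-likelihood test 0 of 9 were called at a Benjamini-Hochberg adjusted p-value under 0.05, against 0% of the 12783 genes tested. Without adjustment the count was also 0 of 9, against 3.43% of all genes, and the lowest unadjusted p of the set was 0.288, for Dnmt3b, while the highest was 0.989, for Tet2. DESeq2 called 0 of the set as well, and so did limma on log2 RPKM, which did not test Dnmt3b because of its low RPKM. The adjusted p-value of each gene was 0.9998 in the edgeR test. The 95% intervals of the fold changes were wide: the narrowest, that of Dnmt1, ran from 0.458-fold to 1.82-fold. The test therefore does not show that the groups were alike. For 8 of the 9 genes the larger gap between replicates of a group exceeded the difference between the group means on the log2 CPM scale. The exception was Dnmt3b, with a gap of 0.44 and a difference of -0.71. The share of all tested genes with such a gap was not computed, so the 8 of 9 does not set these genes apart.

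**Figure D1:**
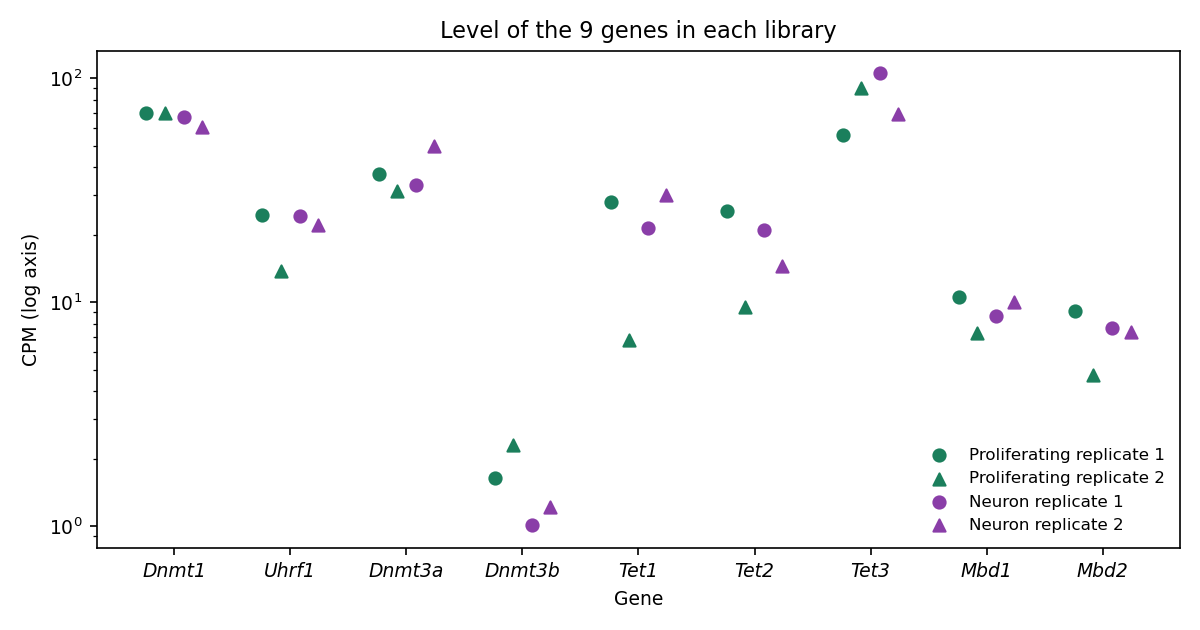
Level of each gene in CPM on a log axis, green for proliferating cells and purple for neurons, circles for replicate 1 and triangles for replicate 2. Dnmt1 lies between 60.2 and 69.8 CPM in all 4 libraries, whereas Tet1 lies at 6.77 CPM in proliferating replicate 2 and at 21.4 to 30.0 CPM in the others.

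The replicate pairs gave opposite pictures. Among the replicate 1 libraries 8 of the 9 genes were lower in neurons, and among the replicate 2 libraries 6 of the 9 were higher. The median log2 difference of the set was -0.25 in the first pair and 0.60 in the second, against -4.2e-05 and 0.067 over all tested genes. Of the 9 genes, 6 were lower in neurons in the first pair and higher in the second, a pattern shown by 24.5% of all genes tested. The 2 genes lower in neurons in both pairs were Dnmt1 and Dnmt3b, against 25.5% of all genes, and 0 of 9 were higher in both. These 2 were also the genes whose groups did not overlap in CPM with neurons lower, against 14.5% of all genes. No gene of the set lay higher in both neuron libraries than in both proliferating ones, which 12.9% of all genes did. Proliferating replicate 2 was lower than replicate 1 for 7 of the 9 genes, against 6533 of all 12783 tested genes. The median log2 difference was -0.51 for the set and -0.039 over all tested genes. Across 11597 genes, the log2 difference went with the length of the longest transcript in opposite directions in the pairs (Spearman's rho -0.14 and 0.20), and between the proliferating replicates rho was -0.25. Genes are not independent replicates, and the part of transcript length in the members' values was not tested. The counts of 2 for Dnmt1 and Dnmt3b are near the background shares.

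**Figure D2:**
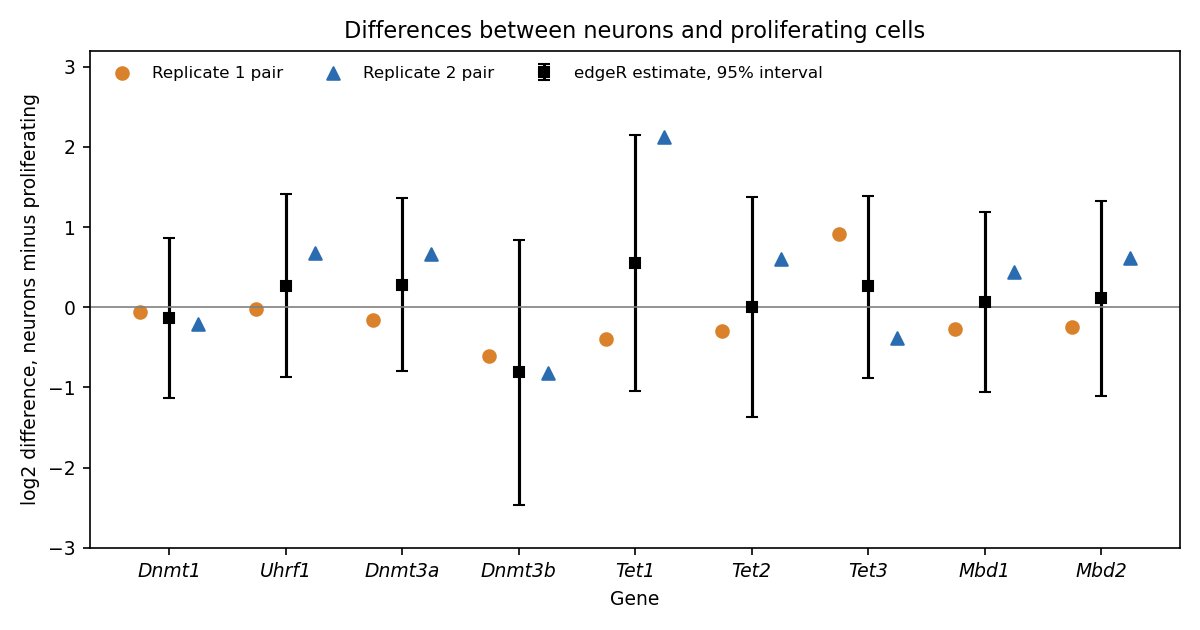
log2 differences of neurons minus proliferating cells per gene: black squares are edgeR estimates with 95% intervals over 2 libraries per group, orange circles the replicate 1 pair and blue triangles the replicate 2 pair. Every interval includes 0, and with scaling by library size alone the estimates of Uhrf1, Dnmt3a, Tet1, Tet2, Mbd1 and Mbd2 turn negative.

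Dnmt1, the maintenance methyltransferase (RefSeq GRCm38.p6 chromosome 9, 20907206 to 20959888, minus strand), was the gene of the set with the smallest range in CPM. Its counts were 850, 515, 800 and 591. Scaled to 69.8, 69.7, 67.3 and 60.2 CPM, both neuron libraries lay just below both proliferating ones, and the whole range spanned 1.16-fold. In the deposited RPKM, which is not TMM-scaled, it had 3.02, 1.31, 2.23 and 1.08, with overlapping groups and a 2.80-fold range, against 2.73-fold for Dnmt3a. Group levels were 69.8 ± 0.0893 CPM for proliferating cells and 63.8 ± 4.98 CPM for neurons (SD, n = 2). In edgeR the log2 fold change was -0.13 (SE 0.43, 95% interval -1.13 to 0.87), and its sign was the same in each of the 12 alternative settings. The pair differences were -0.053 and -0.21 on the log2 scale, with 95% counting intervals of -0.19 to 0.087 and -0.38 to -0.037. Such intervals compare single libraries and cover counting error only.

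Uhrf1 (chromosome 17, 56303337 to 56323486, plus strand) encodes the protein that recognises newly replicated methylated CG and recruits DNMT1. Its counts were 299, 102, 288 and 218, or 24.6, 13.8, 24.2 and 22.2 CPM. Proliferating replicate 2 lay below the other 3 libraries, which were close together, so the groups overlapped. Proliferating cells had a mean of 19.2 ± 7.61 CPM and neurons one of 23.2 ± 1.42 CPM (SD, n = 2). This gave a log2 fold change of 0.27 (SE 0.49, 95% interval -0.87 to 1.41), and the pair differences were -0.020 and 0.68. The fold change was -0.063 when proliferating replicate 2 was left out and -0.14 with library size alone.

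Within a library, the ratio of Uhrf1 to Dnmt1 counts needs no scaling between libraries. It was 0.352, 0.198, 0.360 and 0.369. Both neuron values were above the proliferating ones, but proliferating replicate 1 lay beside them and proliferating replicate 2 stood apart. The mean log2 ratio was -1.91 ± 0.57 for proliferating cells and -1.45 ± 0.026 for neurons (SD, n = 2). The exact permutation test, two-sided, gave p = 0.333, the smallest value that 2 libraries against 2 allow.

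S phase genes, whose expression goes with DNA replication, were not called in either direction. Of 17 genes, all tested, 12 had positive and 5 negative estimates, with a median log2 fold change of 0.30, against 0.024 over all tested genes. It was 0.12 and 0.61 in the replicate pairs, -0.064 with library size alone, 0.044 when neuron replicate 1 and 0.53 when proliferating replicate 1 was left out. Their summed level was 550, 252, 638 and 488 CPM, lowest in proliferating replicate 2. Between the proliferating replicates 14 of the 17 were lower in replicate 2, against 6533 of all 12783 tested genes, with a median log2 difference of -0.40. In that same comparison Uhrf1 had -0.82 and Dnmt1 -0.0026. Top2a, a topoisomerase of dividing cells, had 2035, 162, 2599 and 1285 counts, and Mcm6, a subunit of the replicative helicase, 699, 185, 631 and 680. The part that the state of proliferating replicate 2 has in the values of Uhrf1 was not tested.

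Other genes of the maintenance machinery were mostly low in the same library. Of 9 genes in this list 8 were tested, all 8 had positive estimates and 0 were called. Their median was 0.40, which was 0.11 with library size alone and 0.13 when proliferating replicate 2 was left out. Hells, a helicase required for methylation of repeats, had 299, 31, 384 and 210 counts. Uhrf2, the paralogue of Uhrf1, had 187, 37, 249 and 126. Both genes were lowest in proliferating replicate 2. Usp7, a deubiquitinase that binds DNMT1, had 512, 271, 553 and 361 counts, or 42.1, 36.7, 46.5 and 36.8 CPM. Cdca7, a partner of HELLS, had 276, 193, 298 and 319 counts, or 22.7, 26.1, 25.1 and 32.5 CPM, lowest in proliferating replicate 1. Dppa3, an inhibitor of UHRF1 in oocytes, was at 0 in all 4 libraries. Of the 8 tested genes 7 were lower in proliferating replicate 2 than in replicate 1, against 6533 of all 12783 tested genes. Pcna, 1 of the 8, is also among the S phase genes.

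The de novo enzymes differed in level from each other more than between the groups. Dnmt3a (chromosome 12, 3801559 to 3914443, plus strand) had 453, 231, 397 and 490 counts, or 37.2, 31.3, 33.4 and 50.0 CPM. Neuron replicate 2 was the highest and the other 3 lay close to each other, so the groups overlapped. The means were 34.2 ± 4.21 CPM for proliferating cells and 41.7 ± 11.7 CPM for neurons (SD, n = 2). The edgeR estimate of the log2 fold change was 0.28 (SE 0.46, 95% interval -0.79 to 1.36), with pair differences of -0.16 and 0.67. Leaving out neuron replicate 2 gave -0.036, and library size alone -0.13. An antisense gene, Dnmt3aos, overlaps Dnmt3a and had at most 6 counts in a library.

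Dnmt3b (chromosome 2, 153649411 to 153687730, plus strand) had the fewest counts of the set, 20, 17, 12 and 12, or 1.64, 2.30, 1.01 and 1.22 CPM. Both neuron libraries lay below both proliferating ones. Proliferating cells had 1.97 ± 0.465 CPM and neurons 1.12 ± 0.151 CPM (SD, n = 2). The log2 fold change was -0.81 (SE 0.70, 95% interval -2.46 to 0.84). The pair differences were -0.61 and -0.82, with counting intervals of -1.87 to 0.40 and -2.11 to 0.24, so at this depth neither exceeded counting error. The estimate was negative in each of the 10 alternative settings that tested the gene, and -0.54 when proliferating replicate 2 was left out. The antisense gene Dnmt3bos overlaps Dnmt3b in the GENCODE annotation and was not analysed here, and whether strand was used in counting is not given in the sources used here.

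In every library Dnmt3a exceeded Dnmt3b, in counts and per length. The count ratio was 22.6, 13.6, 33.1 and 40.8, so the neuron libraries had the higher ratios. On the log2 scale the mean was 3.99 ± 0.53 for proliferating cells and 4.98 ± 0.21 for neurons (SD, n = 2), with pair differences of 0.46 and 1.52. The exact permutation p, two-sided, was 0.333, the smallest possible. Dnmt3b made up 4.23%, 6.85%, 2.93% and 2.39% of the counts of both genes, with 95% Wilson intervals of 2.75% to 6.44%, 4.32% to 10.7%, 1.69% to 5.06% and 1.37% to 4.13%. Only the intervals of proliferating replicate 2 and neuron replicate 2 do not overlap across the groups. Per base of the longest GENCODE transcript, Dnmt3a exceeded Dnmt3b by 10.1-fold, 6.06-fold, 14.8-fold and 18.2-fold.

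**Figure D3:**
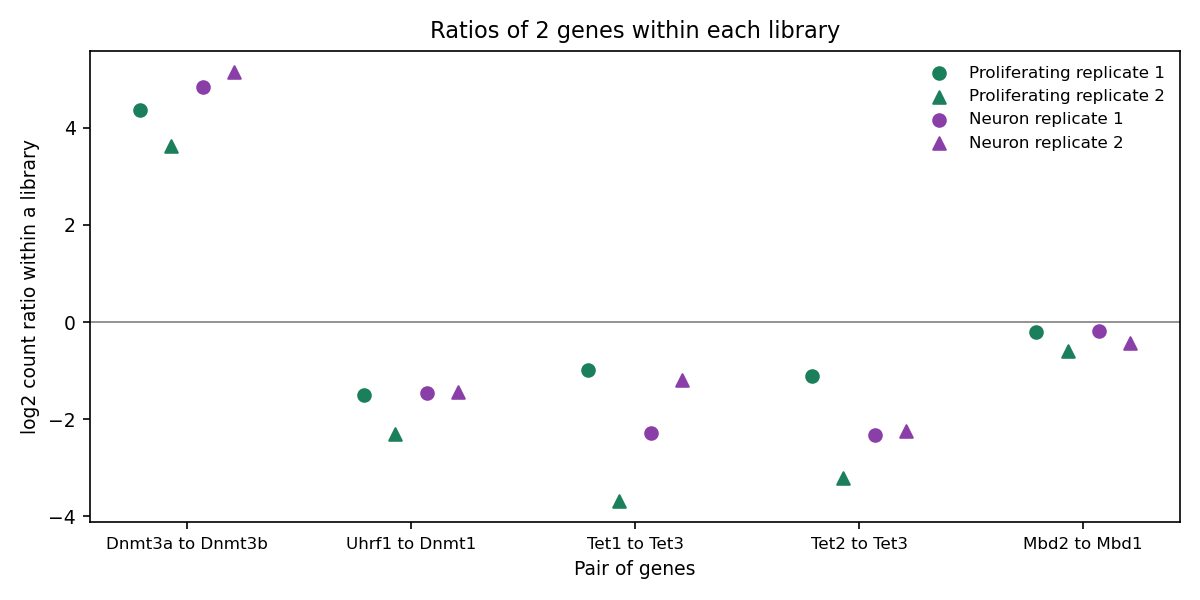
log2 ratio of the counts of 2 genes within each library, with 2 added to each count, green for proliferating cells and purple for neurons, circles for replicate 1 and triangles for replicate 2. Dnmt3a to Dnmt3b and Uhrf1 to Dnmt1 are higher in both neuron libraries, while the ratios to Tet3 spread most within a group, from -0.99 to -3.68 for Tet1 in proliferating cells.

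Of the partners of de novo methylation, 6 of 8 genes were tested, 3 with positive and 3 with negative estimates, and 0 were called. Their median log2 fold change was 0.14, which was -0.15 with library size alone and -0.022 when neuron replicate 1 was left out. Dnmt3l, the cofactor of DNMT3A in germ cells, was at 0 counts in all libraries, and Dnmt3c was not analysed here. Zfp57 is a zinc finger protein that keeps imprinted regions methylated. Among the 82 tested genes of the 8 pathway lists, it alone had an unadjusted edgeR p under 0.05 without the replicate block. The share over all tested genes was 3.43% in that fit. With the replicate block there were 4, Zfp57, Hells, Mki67 and Top2a, each higher in neurons in both replicate pairs. Of all 12783 genes, 790 were under 0.05 without adjustment in the block fit, which called 0 genes higher in neurons. Zfp57 had 4, 8, 29 and 44 counts, so every neuron library was above every proliferating one. Its log2 fold change was 2.34 (SE 0.81), with an edgeR p of 0.0224 before and 0.9998 after adjustment, and with the replicate block 0.00652 before and 0.414 after. It was 1.62 when proliferating replicate 1 and 3.37 when proliferating replicate 2 was left out. Trim28, the corepressor that ZFP57 recruits, had 889, 943, 962 and 834 counts, or 73.0, 128, 80.9 and 85.0 CPM. Setdb1, the histone methyltransferase of that complex, had 1794, 396, 983 and 986 counts. Ehmt2, a histone methyltransferase also tied to de novo methylation, had 423, 383, 360 and 416.

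Tet1 and Tet2 held the largest replicate gaps of the set. Tet1 (chromosome 10, 62804570 to 62887469, minus strand), best known from embryonic stem cells, had 342, 50, 255 and 294 counts, or 28.1, 6.77, 21.4 and 30.0 CPM. Proliferating replicate 2 was far below the other 3, and the groups overlapped. Proliferating cells averaged 17.4 ± 15.1 CPM and neurons 25.7 ± 6.03 CPM (SD, n = 2). Its estimated log2 fold change was 0.55 (SE 0.68, 95% interval -1.04 to 2.15). It was -0.11 when proliferating replicate 2 was left out and 1.89 when proliferating replicate 1 was (edgeR adjusted p = 0.108), and -0.10 with library size alone. Between the proliferating replicates Tet1 differed by -2.02 on the log2 scale, with a counting interval of -2.51 to -1.62, and 8.46% of all tested genes were at least as low. Among the replicate 2 libraries its difference was 2.12, a value reached by 4.01% of all tested genes, and among the replicate 1 libraries it was -0.39.

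Tet2 (chromosome 3, 133463677 to 133545136, minus strand), the TET enzyme without a CXXC domain of its own, had 311, 70, 248 and 142 counts, or 25.6, 9.48, 20.9 and 14.5 CPM. Both replicate 2 libraries were below both replicate 1 libraries, so the order followed the replicate number. Levels averaged 17.5 ± 11.4 CPM for proliferating cells and 17.7 ± 4.51 CPM for neurons (SD, n = 2). As a log2 fold change, edgeR gave 0.0080 (SE 0.59, 95% interval -1.37 to 1.38), and the pair differences were -0.29 and 0.60. Its sign turned with the library left out, to -0.51 for proliferating replicate 2 and -0.31 for neuron replicate 1, while leaving out proliferating replicate 1 gave 0.87. With library size alone it was -0.43. The antisense gene Gm42567 overlaps Tet2 and was not analysed here.

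Tet3 (chromosome 6, 83362373 to 83457208, minus strand), the TET enzyme of the oocyte and of neurons, had 680, 666, 1250 and 677 counts, or 55.9, 90.2, 105 and 69.0 CPM. It went the other way from Tet1 and Tet2 in both pairs, with 0.91 in the first (counting interval 0.78 to 1.05) and -0.38 in the second (-0.54 to -0.23). Among all tested genes 5.95% had a difference at least as high as 0.91 in the first pair. Mean levels were 73.0 ± 24.2 CPM for proliferating cells and 87.1 ± 25.5 CPM for neurons (SD, n = 2). The log2 fold change was 0.26 (SE 0.48, 95% interval -0.88 to 1.39). It was -0.078 when proliferating replicate 1 and -0.12 when neuron replicate 1 was left out. The gene B230319C09Rik, on the opposite strand of Tet3, had 14, 4, 23 and 3 counts.

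Summed over the 3 genes, the TET level was 110, 106, 147 and 113 CPM, so the sum varied less than Tet1 or Tet2 alone. Per base of the longest transcript, Tet3 made up 51.9%, 84.6%, 71.9% and 63.3% of the family, and Tet1 19.8%, 4.82%, 11.1% and 20.9%. Tet3 was the largest part in every library, and most so in proliferating replicate 2. The share of Tet1 in the counts of the family was 25.7%, 6.36%, 14.5% and 26.4%, with 95% Wilson intervals of 23.4% to 28.1%, 4.86% to 8.29%, 13.0% to 16.3% and 23.9% to 29.1%. Libraries of the same group thus differed by more than counting error. The log2 ratio of Tet1 to Tet3 averaged -2.34 ± 1.91 for proliferating cells and -1.74 ± 0.77 for neurons, and that of Tet2 to Tet3 -2.17 ± 1.48 and -2.28 ± 0.061 (SD, n = 2). The exact permutation p, two-sided, was 1 for both ratios.

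**Figure D4:**
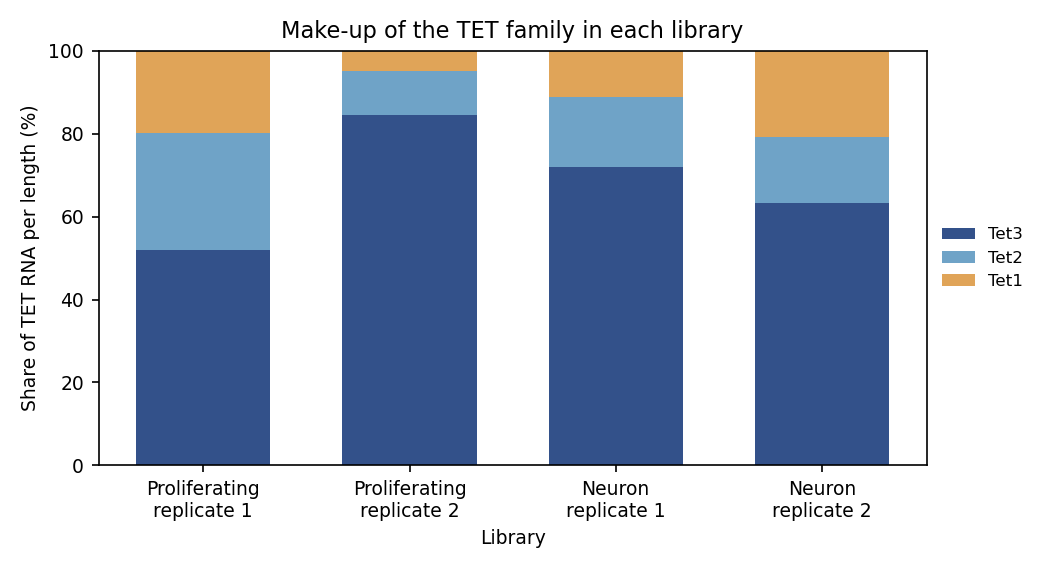
Share of each TET gene in the summed counts per base of the longest GENCODE transcript of Tet1, Tet2 and Tet3, as stacked bars for the 4 libraries. Tet3 is the largest part in every library, from 51.9% in proliferating replicate 1 to 84.6% in proliferating replicate 2, and the libraries of a group differ from each other.

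Genes that remove oxidised bases or act beside the TET enzymes showed no common direction. Of 15 genes 14 were tested, 8 with positive and 6 with negative estimates, and 0 were called. The median was 0.084, which was -0.14 with library size alone and -0.11 when proliferating replicate 1 was left out. Without overlap of the groups in CPM, 3 of the 14 lay higher and 2 lower in neurons, beside 12.9% and 14.5% of all genes. Tdg, the glycosylase that excises the oxidised bases, was 1 of the 2 lower. It had 28, 16, 16 and 15 counts, or 2.30, 2.17, 1.35 and 1.53 CPM. Parp1, which acts in the repair of the resulting breaks, had 708, 409, 657 and 934. Ogt, the O-GlcNAc transferase that binds TET proteins, had 367, 145, 406 and 296 counts. Cxxc4, a CXXC protein known to lower TET2 protein, had 110, 11, 109 and 59, with its lowest value in proliferating replicate 2 like Tet1 and Tet2. Cxxc5 went the other way, with 108, 160, 85 and 141 counts, highest in that library. Of the 14 tested genes 7 were lower in proliferating replicate 2 than in replicate 1, against 6533 of all 12783 tested genes. The median log2 difference of the 14 was 0.033.

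The 2 readers of the set had 35 to 128 counts per library. Mbd1 (chromosome 18, 74267605 to 74282737, plus strand) binds methylated CG and, through a CXXC domain, unmethylated CG as well. It had 128, 54, 103 and 98 counts, or 10.5, 7.31, 8.66 and 9.99 CPM. The groups overlapped, with means of 8.91 ± 2.27 CPM for proliferating cells and 9.33 ± 0.938 CPM for neurons (SD, n = 2). The estimate on the log2 scale was 0.061 (SE 0.48, 95% interval -1.06 to 1.19), and the pair differences were -0.27 and 0.44. Its sign turned when proliferating replicate 2 (-0.16) or neuron replicate 2 (-0.042) was left out, and with library size alone (-0.34).

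Mbd2 (chromosome 18, 70568225 to 70629134, plus strand) encodes a subunit that brings the NuRD complex to methylated DNA. Its counts were 111, 35, 91 and 72, or 9.12, 4.74, 7.65 and 7.34 CPM. The neuron libraries lay between the proliferating ones. Averages were 6.93 ± 3.10 CPM for proliferating cells and 7.50 ± 0.222 CPM for neurons (SD, n = 2). Its log2 fold change was 0.11 (SE 0.52, 95% interval -1.11 to 1.32), with pair differences of -0.25 and 0.61. It was -0.26 when proliferating replicate 2 was left out and -0.33 with library size alone. The count ratio of Mbd2 to Mbd1 was 0.867, 0.648, 0.883 and 0.735, the lower value being that of replicate 2 in each group (exact permutation p = 0.667, two-sided).

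Of 8 other reader genes 7 were tested, 6 with positive estimates and 1 with a negative one, and 0 were called. The median log2 fold change was 0.33, which was -0.12 with library size alone, 1.32 when proliferating replicate 1 and 0.13 when proliferating replicate 2 was left out. Mbd3, the NuRD subunit that binds methylated CG poorly, was the gene with the negative estimate and had 187, 284, 210 and 162 counts. Mbd5 and Zbtb33, the latter the zinc finger reader Kaiso, were lowest in proliferating replicate 2, with 25 and 34 counts there against 67 to 125 and 113 to 198 in the other libraries.

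The corepressors that the readers recruit were all tested, 16 in number, 10 with positive and 6 with negative estimates, 0 were called, and the median was 0.23, which was -0.0076 with library size alone, 0.082 when neuron replicate 1 and 0.36 when proliferating replicate 2 was left out. Of these 16 genes, 7 lay higher in both neuron libraries than in both proliferating ones and 0 lower, beside the 12.9% and 14.5% of all genes given above. Chd4, the remodelling ATPase of NuRD, had 1653, 1604, 1972 and 1863 counts, or 136, 217, 166 and 190 CPM, and its groups overlapped. Gatad2b, which bridges MBD2 or MBD3 and CHD4, had 653, 425, 1368 and 800 counts. Atf7ip, a partner of MBD1 and SETDB1, had 355, 222, 701 and 454. For Gatad2b and Atf7ip the neuron libraries were both above the proliferating ones in CPM.

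Enzymes that supply S-adenosylmethionine, the methyl donor, and 2-oxoglutarate, the cosubstrate of the TET enzymes, had a median of 0.0022 over 14 tested genes of 15, 7 positive and 7 negative, with 0 called. With library size alone the median was -0.20. Mat2a, which makes S-adenosylmethionine, had 329, 544, 504 and 274 counts, with opposite orders in the replicate pairs. Idh2, a source of 2-oxoglutarate in mitochondria, had 346, 199, 376 and 409 counts, or 28.4, 26.9, 31.6 and 41.7 CPM.

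Germline genes whose promoters are known to be silenced by methylation in somatic cells had few counts. Of 14 genes, 5 were at 0 in all libraries, among them Dazl and Mael, and the highest count of any was 20. Sycp1, a gene of the meiotic synaptonemal complex, was the 1 gene tested, with 11, 2, 20 and 11 counts. The whole list summed to 37, 2, 25 and 22 counts, lowest in proliferating replicate 2.

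All 9 genes were ordered by level per length. In the deposited RPKM, averaged over the 4 libraries, Dnmt1 was highest at 1.91, followed by Tet3 (1.03), Uhrf1 (0.973) and Mbd2 (0.859). Dnmt3a (0.394), Tet1 (0.382) and Tet2 (0.377) came next, then Mbd1 (0.201) and Dnmt3b (0.017). The length behind these RPKM values is 94162 bases for Dnmt3b and 9565 for Mbd2, against 4320 and 1953 for their longest GENCODE transcripts. For Dnmt3b, Mbd1 (49719 bases) and Uhrf1 (24517 bases) it exceeds the whole RefSeq span of the gene. It is therefore not the length of a transcript of these genes, and the RPKM order of the members rests on it. With the longest transcript as length, the order of the same averages was Dnmt1 (12.3), Tet3 (7.66), Uhrf1 (6.65), Mbd2 (4.21), Dnmt3a (4.10), Mbd1 (2.55), Tet2 (2.30), Tet1 (1.70) and Dnmt3b (0.371). Dnmt1 was first in each library under both lengths. Dnmt3b was last in each library in RPKM, and with the longest transcript it was last in all but proliferating replicate 2, where Tet1 was below it. Over the 4 libraries the ranges of neighbours in this order overlapped.

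In RPKM, whose total includes the 18S row, Dnmt1 averaged 2.17 ± 1.21 for proliferating cells and 1.66 ± 0.816 for neurons (SD, n = 2). The corresponding values were 0.957 ± 0.236 and 1.10 ± 0.741 for Tet3, 1.02 ± 0.875 and 0.927 ± 0.443 for Uhrf1, and 0.956 ± 0.853 and 0.762 ± 0.343 for Mbd2. The spread within each group was larger than the difference between the groups for these 4 genes.

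By the smallest distance between log2 CPM profiles centred over the 4 libraries, the gene most like a member was Usp8 for Uhrf1 (distance 0.0367), Itfg1 for Dnmt3a (0.0522) and Gm5297 for Dnmt3b (0.0349). For the TET genes it was Zc2hc1a for Tet1 (0.0998), Kdsr for Tet2 (0.0529) and Notch1 for Tet3 (0.0494), and for the readers Atp6v1c1 for Mbd1 (0.0121) and Metap2 for Mbd2 (0.0298). The median distance of the tested genes outside the set from a member was 0.916 to 1.85. With profiles of only 4 libraries and so many genes, a small smallest distance is bound to occur. It therefore does not show a link between the genes. Notch1, a Notch receptor, had 566, 530, 1002 and 549 counts, highest in neuron replicate 1 like Tet3.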

How the data were processed

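Total RNA of 4 cultures (2 of proliferating iMOP cells, 2 of neurons derived from them) was sequenced. The authors deposited raw counts per gene symbol and RPKM values for each library. The submitters' processing notes name HISAT2, SAMtools, featureCounts, DESeq2, deepTools 3.4.3 and the build mm10, without their roles; the annotation, the use of strand and the treatment of reads with several matches are not given in the sources used here. For all 25859 genes with a count, the deposited RPKM equalled the count divided by the library total and 1 length per gene (relative tolerance 1e-06).

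The test was edgeR 4.0.16 in R 4.3.3: TMM factors, filterByExpr (minimum count 10, minimum total 15), a quasi-likelihood fit (glmQLFit, glmQLFTest) on the group, two-sided, adjusted over 12783 genes, with calls at an adjusted p under 0.05. Intervals of fold changes are 95% intervals from the standard error. CPM uses TMM-adjusted library sizes, differences within a replicate pair use log2 CPM after adding a prior count (2), and counting intervals are exact Clopper-Pearson. Reads without molecular identifiers are not independent molecules, so all counting intervals cover counting error only. The fit was tested on simulated data, and the outcome is not reported here.

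Groups and replicate numbers come from the titles, where the words "set 2" mark both replicate 2 libraries, so the numbers were taken to mark a shared set. Across genes, libraries with the same number deviated together from their groups (r = 0.33). Alternatives were RLE factors, library size alone, the 18S row left out, DESeq2 1.42.0, no gene filter, limma 3.58.1 on log2(RPKM + 1) and log2(RPKM + 0.1) for genes with a mean RPKM of at least 0.1, the replicate block and each library left out. Named genes are the 9 members, genes of 8 pathway and 7 marker lists, and the nearest profile of each member; a few of these genes are not reported here. The members and lists were chosen with earlier results of these data known. Sequences are from RefSeq (GRCm38.p6), transcript lengths from GENCODE M21.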

Additional observations from a re-analysis of the deposited data

How the results depend on the processing

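In each of the 12 alternative settings 0 members were called, with Dnmt3b tested in 10 of them. Leaving out proliferating replicate 1 gave Tet1 an unadjusted p of 0.00447, and the lowest adjusted p of any member in any setting was 0.108, in that fit. Over all genes, 0 were called in either direction in the main test. DESeq2, which left 12032 genes without an adjusted p, called 11 higher and 43 lower, and the test without a gene filter 41 and 122. Library size alone called 2 lower and the replicate block 3 lower, with 790 genes at an unadjusted p under 0.05 against 438 in the main test. Leaving out a library, which leaves 1 group with a single library assumed to vary like the other, called 3 to 29 higher and 11 to 84 lower. The replicate block changed no call among the members. The cause of these differences was not tested.

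Library size alone moved the median of all genes by -0.29 and turned the sign of Uhrf1 (-0.14), Dnmt3a (-0.13), Tet1 (-0.10), Tet2 (-0.43), Mbd1 (-0.34) and Mbd2 (-0.33). On log2(RPKM + 1), which understates changes of low genes, the sign turned for Uhrf1 (-0.016), Dnmt3a (-0.025), Tet2 (-0.091), Mbd1 (-0.051) and Mbd2 (-0.092), and on log2(RPKM + 0.1) for Dnmt3a (-0.0033), Tet2 (-0.13), Mbd1 (-0.14) and Mbd2 (-0.067). With each library left out, the estimates ran from -0.063 to 0.72 for Uhrf1, -0.036 to 0.51 for Dnmt3a, -0.11 to 1.89 for Tet1, -0.51 to 0.87 for Tet2, -0.12 to 0.66 for Tet3, -0.16 to 0.32 for Mbd1 and -0.26 to 0.63 for Mbd2. Dnmt1 and Dnmt3b kept a negative sign in all settings that tested them, and Dnmt3b was tested in 10 of 12. With the longest transcript as gene length, the rank of 2 members differed (Tet1 and Mbd1). With 12 to 20 counts per library, depth limits what can be said of Dnmt3b.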
